A study of Schizosaccharomyces pombe with 28 samples.

Results

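The subtelomeres of chromosomes I and II of the fission yeast *Schizosaccharomyces pombe* were described from the gene annotation that accompanied a ChIP-seq study of the heterochromatin protein Swi6. Members were chosen by position alone. A feature belonged to a subtelomere when its first and its last base both lay within 100 kb of an end of chromosome I (5579133 bp) or chromosome II (4539804 bp). The 4 ends held 812 of the 40349 features of the annotation, and 184 of its 6951 genes. The left and right ends of chromosome I held 52 and 47 genes, and the left and right ends of chromosome II held 47 and 38.

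The study immunoprecipitated the histone marks H3K9me2 and H3K9me3 from clr4D, epe1D, swi6T278Y, swi6T278K, swi6T278Yepe1D, swi6T278Kepe1D and WT cells, each without tetracycline or after 24 h in it, at 32 °C. All of these strains but clr4D carried a Clr4 fusion that tetracycline releases from a reporter, Clr4 being the H3K9 methyltransferase and Epe1 an antagonist of heterochromatin. Of the 28 libraries, 27 had a genotype, mark and treatment of their own, so each group was 1 library, and 1 library whose label names both *swi6* variants was not assigned. Read coverage of these libraries was not analysed here, so nothing below is a measurement of H3K9 methylation.

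A subtelomere is the stretch of chromosome next to the telomeric repeats. In fission yeast it is packed into heterochromatin, in which Clr4 methylates histone H3 on lysine 9 and Swi6 binds the methylated tail. Subtelomeres of many fungi carry gene families whose members recur at several ends.

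An annotation has no replicates, so the ends are set beside the range of the inner windows, and no difference from the rest of the chromosomes was tested. Intervals are exact Clopper-Pearson 95% intervals and cover counting error only. The inner windows were the 53 and 43 full, non-overlapping 100 kb stretches between the ends of chromosomes I and II.

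The outermost bases of each chromosome sequence show where the assembly stops. The following lines give the last 60 bases of each end on the plus strand, from the RefSeq build ASM294v3, with a GATC at the very edge in capitals. They lie at chrI:1-60, chrI:5579074-5579133, chrII:1-60 and chrII:4539745-4539804.
I left: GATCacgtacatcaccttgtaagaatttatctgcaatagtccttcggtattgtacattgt
I right: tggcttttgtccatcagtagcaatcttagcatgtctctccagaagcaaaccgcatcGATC
II left: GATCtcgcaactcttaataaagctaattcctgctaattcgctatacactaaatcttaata
II right: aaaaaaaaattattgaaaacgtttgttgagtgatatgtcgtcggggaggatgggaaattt

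A GATC stood at the edge of 3 of the 4 ends, and the right end of chromosome II lacked one. The letters TTACAGG, a core of the fission yeast telomeric repeat, were counted on both strands. They occurred 8 times in the left window of chromosome I, 13 times in its right window, and 8 times in each window of chromosome II. Inner windows had 4 to 19 occurrences on chromosome I (median 9) and 5 to 15 on chromosome II (median 10), so the end windows lay within the inner range.

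The edges cut through genes. *tlh1*, which encodes a RecQ type DNA helicase, ran into base 1 of chromosome I and had no stop codon, with 5662 bp of coding sequence for 1887 amino acids. Its counterpart *tlh2* at the right end of chromosome II was complete, with 5760 bp for 1919 amino acids. The end of both coding sequences is shown on the coding strand from base 5623, at chrI:1-40 on the minus strand and chrII:4532507-4532644 on the plus strand, with the 98 bases that *tlh1* lacks in capitals.
tlh1: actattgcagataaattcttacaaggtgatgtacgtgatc
tlh2: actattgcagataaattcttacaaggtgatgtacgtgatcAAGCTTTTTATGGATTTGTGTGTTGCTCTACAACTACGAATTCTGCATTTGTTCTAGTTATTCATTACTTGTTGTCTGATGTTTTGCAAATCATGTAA

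Over the 5662 bases that both genes have, *tlh1* and *tlh2* differed at 1 base, and the proteins were identical over 1887 residues. The deposited product of *tlh2* reads as that of *tlh1*. At the right end of chromosome I, SPAC750.08c, an NAD-dependent malic enzyme of 228 amino acids, was cut by the last base and had no start codon. SPAC977.01 at the left end of chromosome I began next to an assembly gap and also lacked a start codon.

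The subtelomeres held fewer coding genes per length than most inner windows of their chromosomes. The 4 ends together had 46 genes and 31 coding genes per 100 kb, against 56.3 genes and 42.0 coding genes per 100 kb in the rest of chromosomes I and II. The left and right ends of chromosome I had 32 and 33 coding genes, against 22 to 51 (median 42) in the inner windows. The left and right ends of chromosome II had 32 and 27, against 25 to 49 (median 42). On each chromosome 1 inner window had fewer coding genes than either end, and these were chrI:3700001-3800000 and chrII:1600001-1700000.

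Coding sequence filled about the same share of each end. It covered 33.2% and 34.4% of the left and right windows of chromosome I, against 38.3% to 73.9% (median 60.1%) inside. On chromosome II it covered 33.15% and 31.2%, against 26.1% to 68.8% (median 59.3%). Both ends of chromosome I therefore lay below all 53 inner windows, while 1 of the 43 inner windows of chromosome II lay below both of its ends.

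The ends were also poorer in G and C. G+C content was 33.7% and 33.2% at the left and right ends of chromosome I, against 34.3% to 37.4% inside. It was 32.6% and 33.2% at the left and right ends of chromosome II, against 34.1% to 36.9% inside. All 4 ends had a lower G+C content than every inner window of their chromosome. Within the ends, the outermost 10 kb of the left end of chromosome I, which holds *tlh1*, had the highest G+C content of the 10 kb bins at 39.5%.

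**Figure D1:**
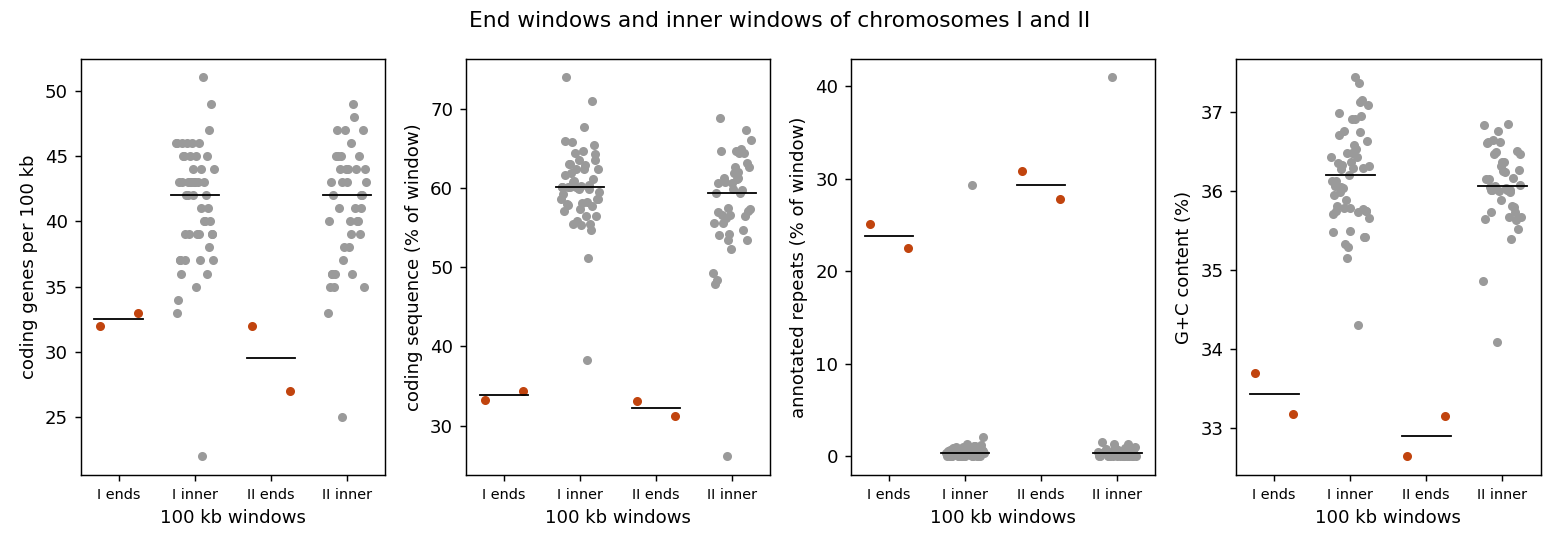
Coding genes per 100 kb, share of length in coding sequence (%), share of length in annotated repeats (%) and G+C content (%) for the end windows (orange) and the inner windows (grey) of chromosomes I and II; each point is 1 window of 100 kb, the line is the median, and the vertical axes do not start at 0. The end windows have 27 to 33 coding genes, against an inner median of 42, and all lie below the inner windows in G+C content.

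Annotated repeats covered 25.1% and 22.5% of the left and right ends of chromosome I, and 30.9% and 27.8% of the left and right ends of chromosome II. The inner windows had medians of 0.358% and 0.347%. On each chromosome 1 inner window exceeded both ends, with 29.4% on chromosome I and 41.0% on chromosome II, and these were the windows with the fewest coding genes. The 4 ends together held 31 features of the type repeat_region that covered 25.1% of their length, against 38 that covered 0.755% of the rest.

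Long terminal repeats (LTRs), the flanks that retrotransposons leave behind, numbered 12 and 4 at the left and right ends of chromosome I and 10 and 7 at the left and right ends of chromosome II. This gave 8.25 LTRs per 100 kb at the ends and 1.29 per 100 kb in the rest. Copied LTRs were counted separately, both in DNA shared between ends and in a tandem array at the left end of chromosome II, described below. No inner window had more than 4 on chromosome I or 5 on chromosome II.

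The repeats were not spread evenly over the windows. At the left end of chromosome I they covered 96.6% of the bin from 20 to 30 kb and 1.95% of the next bin inward. At the right end of chromosome I they covered 100% and 97.8% of the first and second 10 kb. The left end of chromosome II had 84.7%, 81.4% and 95.1% in its first 30 kb. At the right end of chromosome II they covered 100% of the bin from 30 to 40 kb, and none of the bin from 10 to 20 kb, which holds part of *tlh2* and the pseudogenes SPBCPT2R1.10, SPBCPT2R1.07c and SPBCPT2R1.06c. In windows of 50 kb, repeats covered 47.3% of the length of the ends, against 26.5% in windows of 100 kb.

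**Figure D2:**
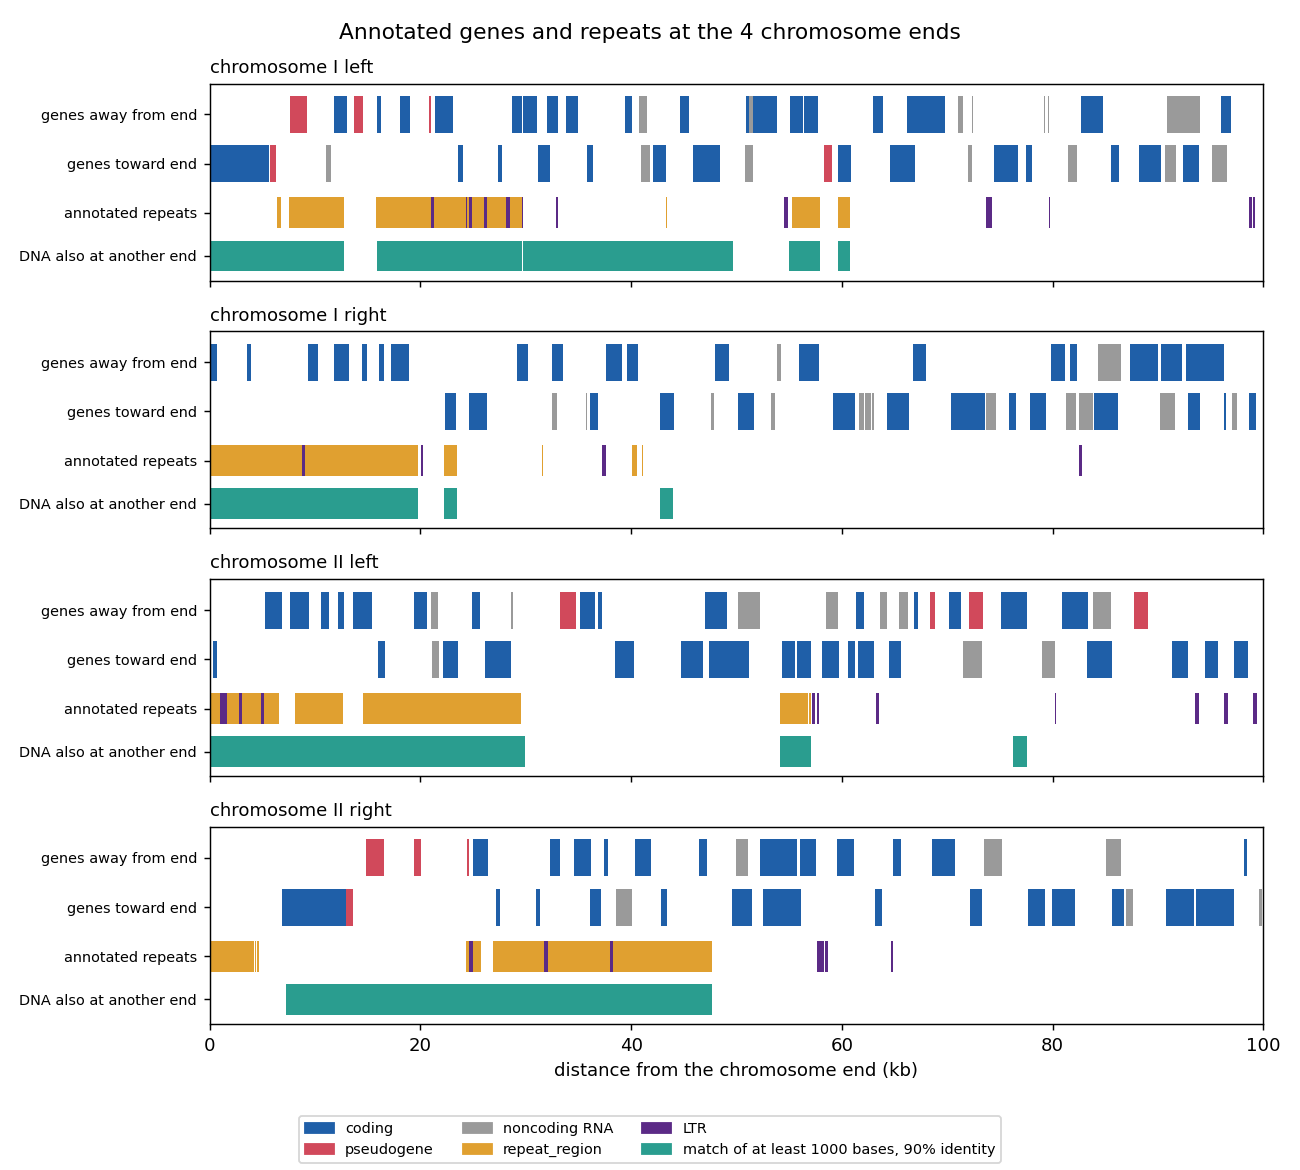
Map of the 4 ends by distance from the chromosome end (kb), with genes transcribed away from and toward the end, annotated repeats and DNA also found at another end on separate lines; bar length is feature length. Repeats and shared DNA lie mostly in the outer part of each window, and at the right end of chromosome II shared DNA starts 7.258 kb from the end.

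DNA shared between ends was found by aligning the 4 windows of the reference with each other. With matches of at least 1000 bases and 90% identity, 50626 bp of the left end and 22246 bp of the right end of chromosome I recurred at another end. The same held for 34109 bp of the left end and 40427 bp of the right end of chromosome II. These matches formed 21 blocks of 1189 to 20846 bp, with a median identity of 98.8% (91.5% to 99.7%).

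The longest block joined the first 20.8 kb of the left end of chromosome II (chrII:1-20841) to chrII:4492120-4512923 at its right end, at 99.6% identity. A block of 15417 bp joined chrI:34314-49682 to chrII:14527-29888 at 98.6% identity. The first 12737 bases of chromosome I, with *tlh1*, matched chrII:4519819-4532546, with *tlh2*, at 99.7%. In 19 of the 21 blocks the shared stretch ran in the same order from both chromosome ends.

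The other 2 blocks were turned, and each held the coding sequence of an L-asparaginase. One joined chrI:54955-57907 to chrII:54143-57075 at 93.2% identity, and the other joined chrI:5535128-5536418 to chrII:76249-77536 at 94.9%. Most of the length in annotated repeat regions lay in shared DNA, and shared DNA also reached beyond it. Of the length in annotated repeat regions, 99.7% and 97.0% was shared at the left and right ends of chromosome I. At the left and right ends of chromosome II, 99.97% and 83.4% was shared. Of the shared DNA, 45.9% and 94.2% lay in an annotated repeat region at the left and right ends of chromosome I, and 84.8% and 55.0% at the left and right ends of chromosome II. Outside the 4 windows, a megablast search of chromosomes I, II and III at the same limits matched 0 bp of 3 ends, and 8277 bp of the left end of chromosome II, which belong to a tandem array across its inner edge.

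**Figure D3:**
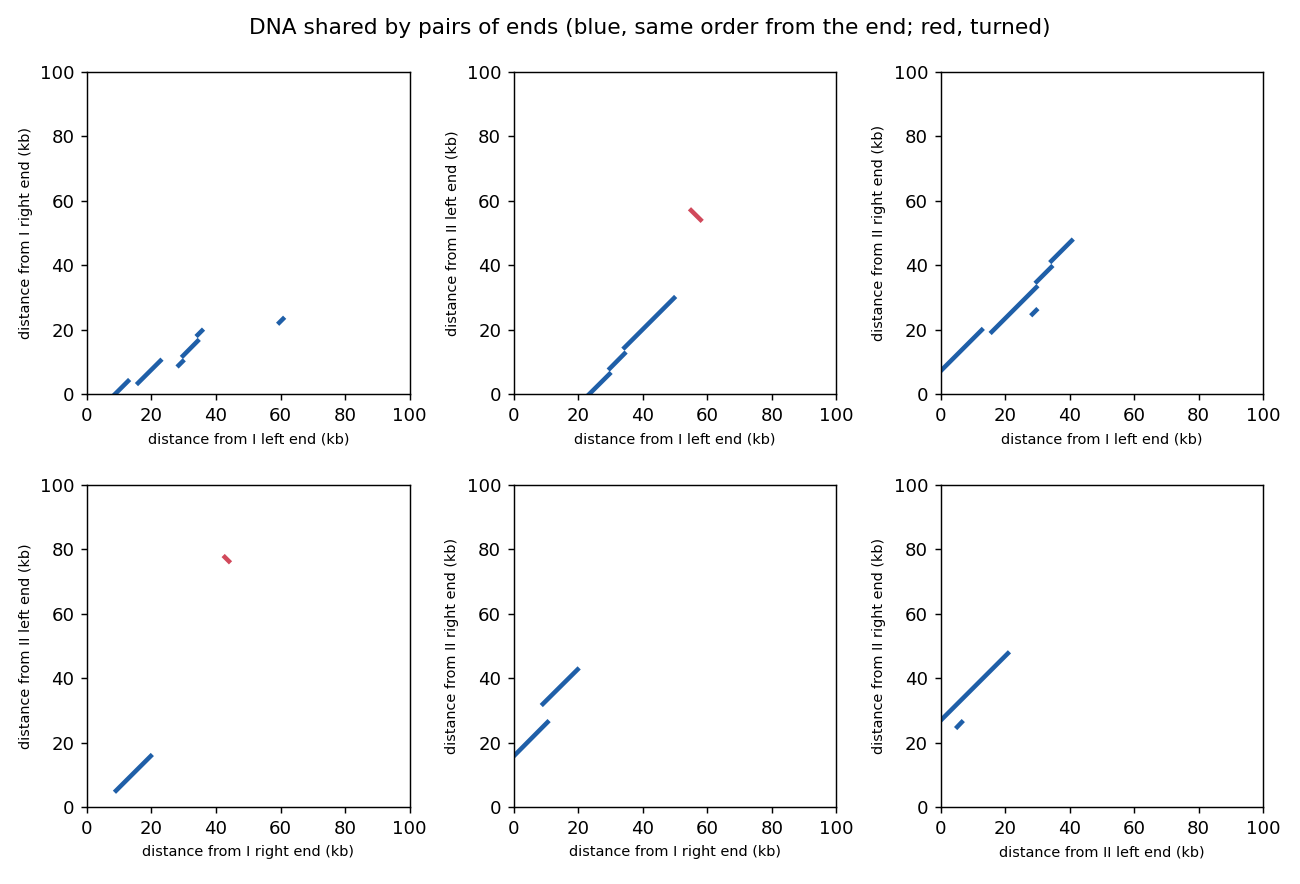
Shared DNA blocks for each of the pairs of ends, by distance (kb) from either chromosome end; blue lines run in the same order from both ends and red lines are turned. The 2 turned blocks join the left end of chromosome II to an end of chromosome I, and the other 19 run parallel to the diagonal.

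Proteins encoded at the ends recurred in the same way. A near copy was defined as 80% identity over 80% of the longer protein. Of 124 subtelomeric proteins, 47 had a near copy at another end (37.9%, 29.3% to 47.1%). They were 15 of 32 at the left end and 8 of 33 at the right end of chromosome I, and 14 of 32 at the left end and 10 of 27 at the right end of chromosome II. The interval counts each copy as a separate gene. Only subtelomeric proteins were used as queries, so the share with near copies among other proteins was not measured. The best match anywhere in the proteome lay at another end for 58 proteins, at the same end for 8 and in the rest of the genome for 33, and 25 had no match.

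At 50% identity the subtelomeric proteins and their matches formed 32 families, of which 15 had all members at the ends. Of the 32, 18 had members at more than 1 end, some with further members in the rest of the genome, and 3 had members at all 4 ends. The largest, with 9 members and at least 50.9% identity between matched members, consisted of hypothetical proteins such as SPAC212.01c, SPAC750.06c, SPBC1348.01 and SPBCPT2R1.04c. The second, SPAC977.02, SPAC750.04c, SPBC1348.03 and SPBPB2B2.17c, had 1 gene at each end, and the 441 bp coding sequences differed at 0 to 2 bases. The third, SPAC977.01, SPAC750.05c, SPBC1348.02 and SPBPB2B2.19c, shared at least 99.7% of aligned residues.

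A predicted methyltransferase gene had a copy at 3 ends. SPAC977.03 (I left), SPAC750.03c (I right) and SPBC1348.04 (II left) had coding sequences of 438 bp that differed at 1 to 3 bases. The first 60 coding bases, which set SPAC750.03c apart from SPAC977.03 and SPBC1348.04, are given on the coding strand with differing bases in capitals, from chrI:33835-33894 (plus), chrI:5562986-5563045 (minus) and chrII:12176-12235 (plus).
SPAC977.03: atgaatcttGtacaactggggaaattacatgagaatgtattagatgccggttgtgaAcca
SPAC750.03c: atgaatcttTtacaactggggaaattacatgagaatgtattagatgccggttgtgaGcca
SPBC1348.04: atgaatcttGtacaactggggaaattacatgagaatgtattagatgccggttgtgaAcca

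A membrane transporter gene was present in full length as SPAC750.02c, SPBC1348.05 and SPBPB2B2.16c at every end but the left one of chromosome I, and the methyltransferase gene was its neighbour at the right end of chromosome I and the left end of chromosome II. Its 1458 bp coding sequences differed at 0 or 1 base. At the left end of chromosome I the gene beside the methyltransferase, SPAC977.04, encoded 155 amino acids, annotated as a hypothetical protein, that matched SPAC750.02c at 100% identity over 32.0% of the longer protein. Several pairs were identical or nearly so between the left ends of chromosomes I and II. The phospholipases SPAC977.09c and SPBC1348.10c (2022 bp) and the short chain dehydrogenases SPAC977.08 and SPBC1348.09 (711 bp) had no differing base. The cell surface glycoproteins SPAC977.07c and SPBC1348.08c (1251 bp) and the CRCB domain proteins SPAC977.11 and SPBPB8B6.06c (936 bp) differed at 1 base, CRCB proteins being fluoride exporters.

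L-asparaginases, which release ammonia from asparagine, formed a family of 4 genes at 3 ends, with 69.4% to 99.7% protein identity. They fell into the pairs of the turned blocks. SPAC186.03 and SPBPB21E7.09 differed at 15 of 1083 coding bases, and SPAC977.12 and SPBPB8B6.05c at 13 of 1071. The 60 coding bases with most differences are shown on the coding strand with differing bases in capitals, to show how the members of each pair differ. They lie at chrI:5535198-5535257 (plus), chrII:76318-76377 (plus), chrI:57413-57472 (plus) and chrII:54587-54646 (minus).
SPAC186.03: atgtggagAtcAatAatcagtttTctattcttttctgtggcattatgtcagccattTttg
SPBPB21E7.09: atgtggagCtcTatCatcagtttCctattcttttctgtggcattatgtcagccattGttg
SPAC977.12: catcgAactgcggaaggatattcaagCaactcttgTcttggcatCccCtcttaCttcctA
SPBPB8B6.05c: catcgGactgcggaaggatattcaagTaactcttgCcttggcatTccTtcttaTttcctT

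A tandem array lay at the inner edge of the left window of chromosome II. It held 4 identical units of 2759 bp from chrII:91637-102672. Each unit had a membrane transporter gene with a coding sequence of 1140 bp and an LTR of 344 bp. SPBPB10D8.04c, SPBPB10D8.05c and SPBPB10D8.06c were members, and SPBPB10D8.07c crossed the 100 kb edge. The 4 LTRs were identical. The outermost one was annotated on the minus strand, and its first 120 bases by position, read on the plus strand, are shown from chrII:93517-93636.
LTR of the tandem array: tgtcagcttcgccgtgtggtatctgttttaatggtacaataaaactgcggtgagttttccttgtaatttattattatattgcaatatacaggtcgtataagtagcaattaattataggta

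Genes of transport and of the cell surface made up a larger share at the ends. By keyword in the product or note text, 20 of 124 coding genes were transporters (16.1%, 10.1% to 23.8%), against 140 of 4079 in the rest (3.43%, 2.89% to 4.04%). The interval treats copies as separate genes, although SPBPB10D8.04c, SPBPB10D8.05c and SPBPB10D8.06c are identical and SPAC750.02c, SPBC1348.05 and SPBPB2B2.16c are near copies. One of the 20, SPAC922.06, is an acyl-carrier-protein reductase that the word carrier caught. The transporters included *sod2*, the sodium ion/proton antiporter, the hexose transporters *ght3* and *ght7*, the siderophore-iron transporter *str3*, the proline permease *put4* and the cationic amino acid transporter *cat1*. There were 3 and 7 at the left and right ends of chromosome I, and 7 and 3 at the left and right ends of chromosome II.

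Cell surface products numbered 6 (4.84%, 1.796% to 10.2%), against 20 in the rest (0.490%, 0.2997% to 0.756%). They comprised the GPI-anchored proteins SPAC212.08c, SPAC212.12 and SPAC750.07c and the glycoproteins SPAC977.07c, SPAC186.01 and SPBC1348.08c. Since SPAC212.12 and SPAC750.07c, and SPAC977.07c and SPBC1348.08c, are near copies, these genes are not independent of each other. Hydrolases were 16 (12.9%, 7.56% to 20.1%), against 297 (7.28%, 6.50% to 8.12%), and oxidoreductases were 11 (8.87%, 4.51% to 15.3%), against 169 (4.14%, 3.55% to 4.80%). For both of these classes the intervals overlapped.

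No coding gene fell into the translation class (up to 2.93%), against 331 in the rest (8.11%). None fell into the heat shock or stress class, against 45 (1.10%), a share that the interval at the ends includes. The 3 helicases (2.42%, 0.502% to 6.91%), against 52 in the rest (1.27%), were *tlh1*, *tlh2* and SPAC212.06c, a helicase-like protein of 147 amino acids. The 2 transcription factors (1.61%, 0.196% to 5.70%), against 128 in the rest (3.14%), were SPBC1348.12, a zinc finger protein, and *grt1*, both at the left end of chromosome II. Products called hypothetical protein were 27 (21.8%, 14.9% to 30.1%), against 121 (2.97%, 2.47% to 3.53%). The interval at the ends treats related genes as separate, although these products include families of 9, 4, 4 and 3 members.

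**Figure D4:**
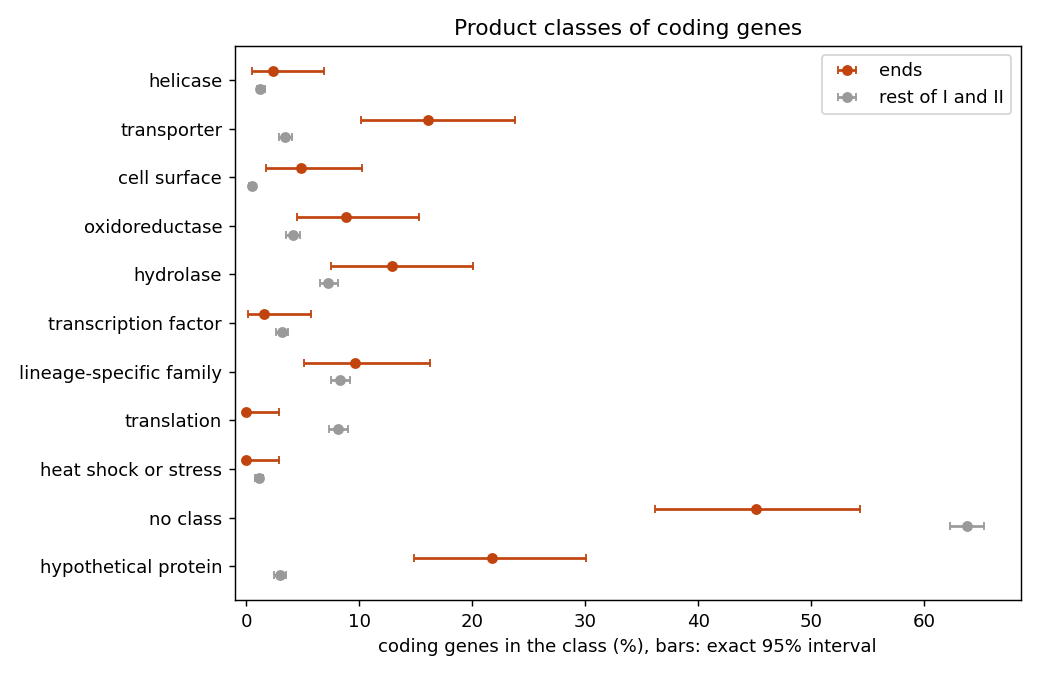
Share of coding genes in each product class (%) at the ends (orange, 124 genes) and in the rest of chromosomes I and II (grey, 4079 genes); bars are exact 95% intervals for counting error. Transporters make up 16.1% at the ends and 3.43% in the rest, and the intervals of the helicase, oxidoreductase, hydrolase, transcription factor, lineage-specific and stress classes overlap.

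Pseudogenes, gene remnants that no longer encode a full protein, numbered 13 of 184 genes at the ends (7.07%, 3.82% to 11.8%), against 8 of 5469 in the rest (0.146%, 0.0632% to 0.288%). The interval at the ends treats copies as separate genes. In shared DNA, SPAC212.10, SPAC212.09c and SPAC212.05c line up with SPBCPT2R1.10, SPBCPT2R1.07c and SPBCPT2R1.05c, in that order. The left end of chromosome I had 5 and each end of chromosome II had 4, whereas the right end of chromosome I had none. Since the assembled sequences stop at different points of the shared DNA, these counts cover unlike stretches. They also depend on how copies were annotated. SPAC750.08c, counted as coding, lies in shared DNA that lines up with parts of the pseudogenes SPBCPT2R1.07c and SPAC212.09c. SPAC212.10 and SPBCPT2R1.07c were annotated as remnants of a malic acid transport protein and of a malic enzyme. No tRNA or rRNA gene lay at the ends (up to 1.98% of genes each), against 123 (2.25%) and 28 (0.512%) in the rest. The interval at the ends includes the rRNA share of the rest. Noncoding RNA genes were 47 (25.5%), against 1219 (22.3%).

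Fewer coding genes had an annotated intron at the ends. An intron in the coding sequence was annotated in 22 of 124 (17.7%, 11.5% to 25.6%), against 1951 of 4079 (47.8%, 46.3% to 49.4%). The interval at the ends treats related genes as separate. The 22 include all 9 members of the largest family and the identical phospholipases SPAC977.09c and SPBC1348.10c. The median coding sequence was 936 bp (213 to 5760 bp), against 1152 bp (75 to 14775 bp). The longest were *tlh2* and *tlh1*, and the shortest was the sequence orphan SPAPJ695.02. Among neighbouring coding genes that did not overlap, the median gap was 1393 bp over 110 gaps at the ends, against 324 bp over 2836 gaps in the rest. Both untranslated regions were annotated for 75 genes (60.5%), against 3682 (90.3%).

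Transcription ran toward the chromosome end for 60 of 124 coding genes (48.4%, 39.3% to 57.5%), against 50.5% in the rest of chromosome I and 49.6% in the rest of chromosome II. In windows of 50 kb the share toward the end was 36.1%, below the interval of the 100 kb windows. No interval was computed for the 50 kb windows, and the difference was not tested. Copied genes repeat the same orientation, since 19 of the 21 shared blocks run in the same order from both ends. Runs of at least 5 neighbouring coding genes on 1 strand occurred at 3 ends, against 52 and 34 such runs in the rest of chromosomes I and II, where the longest had 9 and 10 genes. SPAC750.02c to SPAC750.08c formed a run of 7 at the right end of chromosome I, and SPBC8E4.02c to SPBPB2B2.05, which includes the acid phosphatase gene *pho1*, one of 7 at the right end of chromosome II. The left end of chromosome II had the runs SPBC1348.01 to SPBC1348.05 and *grt1* to SPBPB21E7.02c, with 5 genes each. SPBC1348.01 to SPBC1348.05 and SPAC750.02c to SPAC750.06c lie in 1 shared block of 99.2% identity, so these 2 runs are not independent.

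Some genes inward of the shared DNA are named for their known roles. At the right end of chromosome II, *gal1*, *gal10* and *gal7*, which encode the enzymes that convert galactose to glucose phosphate, lay 49.5, 52.2 and 56.0 kb from the end, together with SPBPB2B2.11. The galactosidase gene *mel1* lay 77.9 kb from the right end of chromosome I. At the left end of chromosome I, the dihydroxyacetone kinase gene *dak2* lay 64.6 kb from the end, and the last coding gene was *isp3*, at 96.0 kb. The last coding genes of the other windows were SPAC922.04, SPBPB10D8.06c and *ecl3*.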

How the data were processed

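The authors deposited 1 annotation of their modified genome, exported from Geneious 7.1.5 per the file headers. Its deposited values are the start and end positions of features (1-based). Per the submitters' processing notes, reads were trimmed with Trimmomatic and aligned with BWA, with versions and build not given in the sources used here. Read coverage was not analysed here, so depth per sample is not given. Members and lists were chosen with earlier results of these data known.

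Sequences came from RefSeq ASM294v3, since chromosomes I and II had the same lengths in both and the deposited translations of all 124 subtelomeric proteins equalled its translation at the deposited positions. Proteins were compared with blastp (E-value 1e-10) and end windows with blastn (1e-20) of BLAST+ 2.17.0, and the rest of the genome with the less sensitive megablast. Scripts ran in Python 3.11.15, with intervals from scipy 1.17.1, tables in pandas 2.3.3, sequences read by Biopython 1.88, arrays in numpy 2.4.6 and plots by matplotlib 3.10.9. Counting and alignment were tested on simulated data. Product classes were assigned by keyword in the product or note text.

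Genes named were coding genes within 25 kb of an end, the first, last, longest and shortest of each window, those with a near copy at another end, helicases, pseudogenes, transcription factors, up to 6 transporters and 6 cell surface genes per end, and long runs on 1 strand. Not all of these are named. *gal1*, *gal10*, *gal7*, SPBPB2B2.11, *mel1*, *dak2*, *pho1* and SPAC922.06 were chosen after their positions were seen.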

Additional observations from a re-analysis of the deposited data

How the results depend on the processing

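Of 41 alternatives, 3 moved a value by more than its limit, which was 1.5 times for counts and densities, the 95% interval for shares, and 1 SD over the 4 ends for lengths. With 50 kb at each end, annotated repeats covered 47.3% of the length, against 26.5% with 100 kb, and the share of coding genes transcribed toward the end was 36.1%, against 48.4%. With products of the reference annotation, 0 coding genes were in the lineage-specific class, against 12 with the deposited products. Leaving out 1 end in turn and the removal of keyword matches inside another name, which left 19 transporters, were chosen after seeing the data. No paired analysis was possible because the annotation holds no replicates. By locus tag, 175 of the 184 genes matched the reference annotation and 88 had the same positions there, so gene lengths and gaps depend on the annotation used. At the 4 ends the reference annotation held 367 genes, with 122 coding genes and 231 long noncoding RNA genes. The deposited annotation had 124 coding genes and 47 noncoding RNA genes there. Gene density and shares of all genes at the ends therefore also depend on the annotation, more than coding gene counts do. Near-identical copies limit how reads could be assigned to 1 end, which was not analysed here.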
